A study of Mus musculus with 6 samples.

Results

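A set of 10 genes of iron handling and hepcidin control were followed in mouse liver: the hepcidin genes Hamp and Hamp2, the iron-sensing ligand Bmp6, the receptors Tfr2, Hfe and Tfrc, the plasma carrier Trf, the ferritin subunits Fth1 and Ftl1, and the exporter Slc40a1. They were chosen by name, as 10 of 18453 genes with at least 1 count in the RNA-seq of whole liver. All mice were Mettl14f/f males on a C57BL/6J background, placed on a high-fat diet (HFD) at 8 weeks of age. After 10 weeks of HFD they received AAV8-TBG-GFP (3 mice, genotype given as WT) or AAV8-TBG-Cre (3 mice, genotype given as METTL14 KO), and livers were taken 8 weeks later. METTL14 is a subunit of the complex that writes N6-methyladenosine on RNA. AAV8 reaches the liver and the TBG promoter is active in hepatocytes, so other liver cells keep the floxed gene in both groups. Each library is the liver of 1 mouse.

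Hepcidin, the peptide encoded by Hamp, is made by hepatocytes and lowers plasma iron by blocking and degrading ferroportin, the exporter encoded by Slc40a1. Bone morphogenetic protein 6 (BMP6), made mainly by liver endothelial cells, acts on hepatocyte BMP receptors with hemojuvelin as co-receptor and raises Hamp through SMAD proteins, while interleukin-6 raises it through STAT3. Inside cells, iron regulatory proteins bind RNA elements that stabilise Tfrc mRNA and block ferritin translation when iron is scarce, so ferritin mRNA and ferritin protein need not move together. Hamp2 is a mouse duplicate of Hamp.

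The promoters of the hepcidin pair are shown to compare a BMP-type and a STAT-type motif near each start. The pair differs in the BMP-type motif and not in the STAT-type motif. The 130 bases just before each start, from the RefSeq promoter table (GRCm38.p6, minus strand), are printed 5′ to 3′. Capitals mark GGCGCC, the core of the BMP response element, or the bases aligned to it, and TTCNNNGAA, a STAT-type palindrome.
Hamp, chr7:30944030-30944159: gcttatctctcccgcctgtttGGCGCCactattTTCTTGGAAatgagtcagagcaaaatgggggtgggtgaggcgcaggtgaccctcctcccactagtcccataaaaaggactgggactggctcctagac
Hamp2, chr7:30924182-30924311: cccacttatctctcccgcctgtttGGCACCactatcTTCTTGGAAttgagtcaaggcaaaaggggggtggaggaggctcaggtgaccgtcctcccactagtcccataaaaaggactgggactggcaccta
Over the 250 bases before the start, 227 of 247 aligned bases (91.9%) were identical. GGCGCC began at position -109 of Hamp. The aligned bases of Hamp2 differed from it by G4A, counted from 1 at the first base of the motif. TTCTTGGAA was present in both, at -97 in Hamp and -94 in Hamp2. On either strand of the 300-base windows (250 before to 50 after the start), GGCGCC occurred in 11.9% of 32851 promoters and TTCNNNGAA in 8.30%. Among the 10681 tested genes with a promoter in the table the shares were 23.5% and 8.43%. Of the 8 genes of the set with a promoter in the table, GGCGCC occurred in Hamp and Tfrc, and TTCNNNGAA in Hamp and Hamp2. Trf and Slc40a1 had no entry. These matches describe letters in a window and were not tested as binding sites.

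Libraries held between 20356440 and 21010508 assigned fragments. Mettl14, the targeted gene, had 6.30, 6.43 and 5.81 CPM (counts scaled to library size) in the AAV8-TBG-GFP livers and 4.96, 5.38 and 4.86 in the AAV8-TBG-Cre livers. The groups did not overlap, but the log2 fold change of -0.29 did not pass the test (edgeR adjusted p = 0.337), so the second group is the libraries labelled AAV8-TBG-Cre. Whole-gene counts include cells that the promoter does not reach and cannot show excision of the floxed part. Hepatocyte markers were abundant in every library (summed 94860 to 115200 and 81350 to 101900 CPM). In whole liver, fewer cells of a type and less RNA per cell cannot be told apart. AAV8-TBG-GFP replicate 3 stood apart in acute-phase genes, with 1224 CPM of Saa1 against 99.48 to 193 in the other 5 livers. CPM values below are scaled by the trimmed mean of M values (TMM), and fold changes are AAV8-TBG-Cre over AAV8-TBG-GFP.

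Per length of transcript, the members spanned a wide range of levels in these livers. In FPKM (fragments scaled to transcript length and library size), the means over 6 livers were 5938 for Trf, 3908 for Ftl1, 1688 for Fth1 and 1362 for Hamp. Below these came Tfr2 at 125.1, Hamp2 at 105.7, Slc40a1 at 33.29 and Hfe at 20.03. Tfrc at 3.28 and Bmp6 at 1.475 were lowest. Trf was the gene of rank 11 among the 18453 genes by mean FPKM, Ftl1 of rank 18, Fth1 of rank 40 and Hamp of rank 51. Trf lay above Ftl1, and Ftl1 above Fth1, in every liver of either group. Fth1 and Hamp overlapped, as did Tfr2 with Hamp2, Hamp2 with Slc40a1, Slc40a1 with Hfe, and Tfrc with Bmp6. Tfr2, the transferrin receptor of the hepatocyte iron sensor, was 25.46 to 95.24 times as abundant as Tfrc, the uptake receptor, in each liver.

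**Figure D1:**
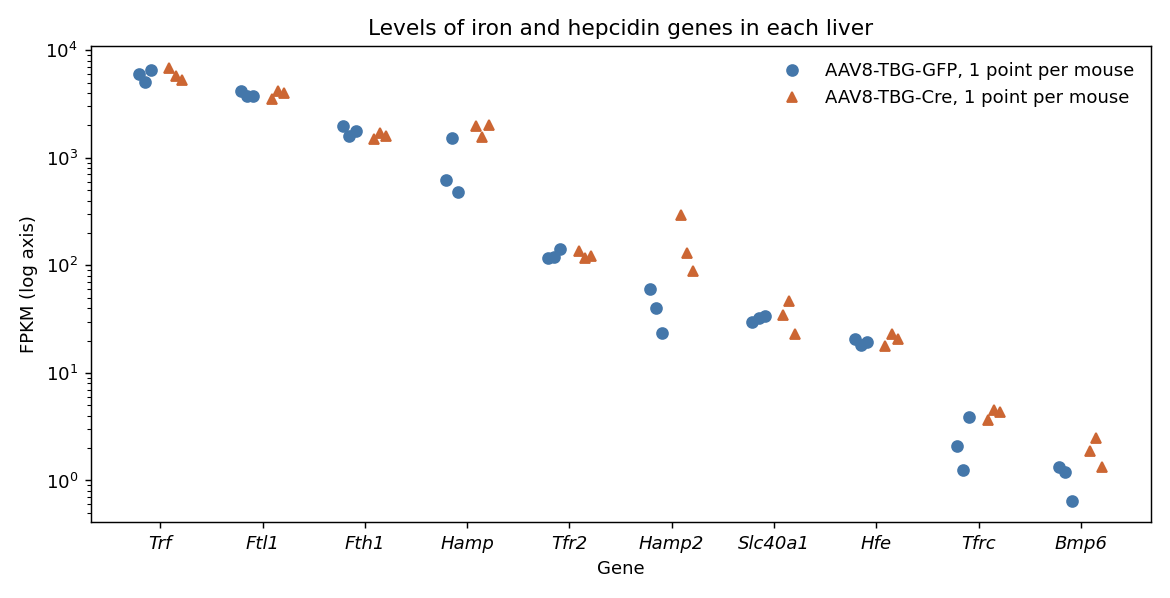
Levels of the 10 genes in FPKM on a log axis, 1 point per mouse, circles for AAV8-TBG-GFP and triangles for AAV8-TBG-Cre, ordered by mean. Trf and the ferritin genes are highest and tightly grouped, while Hamp2, Hamp, Bmp6 and Tfrc spread most between mice.

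Hepcidin mRNA was higher on average in the AAV8-TBG-Cre livers, but for Hamp the groups overlapped. Hamp had 246.3, 611.9 and 202.6 CPM in the AAV8-TBG-GFP livers and 739.1, 504.3 and 770.0 in the AAV8-TBG-Cre livers. A single control, replicate 2, lay above the lowest AAV8-TBG-Cre liver, which was also replicate 2. The means were 353.6 ± 224.8 and 671.2 ± 145.3 (SD, n = 3 each), a log2 fold change of 0.93 ± 0.41 (SE; 95% interval -0.04 to 1.88). Hamp did not pass (unadjusted p = 0.0569, edgeR adjusted p = 0.254). An exact two-sided permutation test over the 20 splits of the mice gave p = 0.2, where 0.1 is the smallest p this design allows. Leaving out AAV8-TBG-GFP replicate 2 gave 1.58 on the log2 scale, with an adjusted p of 0.137. Over all 17 alternatives the unadjusted p was under 0.05 in 8, and the adjusted p lay between 0.137 and 0.528. Those 17 and 8 include the fit described below that counted Hamp and Hamp2 as 1 gene (edgeR unadjusted p = 0.0405), which is not Hamp alone.

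Hamp2 was the member with the largest difference. It had 25.72, 17.50 and 10.52 CPM in the control livers, against 117.9, 44.94 and 36.58 in those given AAV8-TBG-Cre. Every AAV8-TBG-Cre liver lay above every control, and AAV8-TBG-Cre replicate 1 was far above the other livers. The means were 17.91 ± 7.61 and 66.46 ± 44.72 CPM (SD, n = 3 each), 3.71-fold apart (log2 1.89 ± 0.49 SE, 95% interval 0.74 to 3.04). The unadjusted p was 0.00548 and the edgeR adjusted p 0.0948, and the exact permutation p was 0.1. Leaving out AAV8-TBG-Cre replicate 1 gave 1.18 on the log2 scale (unadjusted p = 0.00762). DESeq2 gave an adjusted p of 0.00141, the lowest of the alternatives, whose adjusted p reached 0.261.

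The estimated counts divide fragments that fit both hepcidin genes, so the pair was also taken as 1 gene, an alternative added after the data were seen. Summed CPM were 272, 629.4 and 213.1 in the controls, compared with 857, 549.3 and 806.6 in the AAV8-TBG-Cre livers, with the same overlap as for Hamp. The log2 fold change of the sum was 0.99 ± 0.40 (SE; unadjusted p = 0.0405, edgeR adjusted p = 0.218). Hamp2 made up 9.45, 2.78 and 4.94% of the sum in the controls and 13.8, 8.18 and 4.54% in the AAV8-TBG-Cre livers, which overlapped.

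In the edgeR fit of all 6 mice, Hamp2 alone of the 10 members passed the threshold of unadjusted p under 0.05 with a fold of at least 1.2, in the higher direction. Of all 13431 genes tested, 20.5% passed that threshold, 12.0% higher and 8.41% lower, so 1 of 10 was no more than the background. DESeq2 called 4 members, Hamp, Hamp2 and Bmp6 higher and Fth1 lower, where 16.2% of all genes passed. limma on log2(FPKM + 1) called 4, Hamp, Hamp2, Bmp6 and Tfrc, all higher, where 15.7% of all genes passed higher and 2.98% lower. No member passed an adjusted p under 0.05 in edgeR, 1 passed at an unadjusted p under 0.05, and DESeq2 gave 1 at the adjusted threshold. Of all genes, 0.931% passed it in edgeR and 6.28% in DESeq2. The groups did not overlap in CPM for Hamp2 and Fth1, 2 of 10 members, against 27.0% of all genes. The members' median log2 fold change was -0.09, beside -0.01 for all genes tested.

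**Figure D2:**
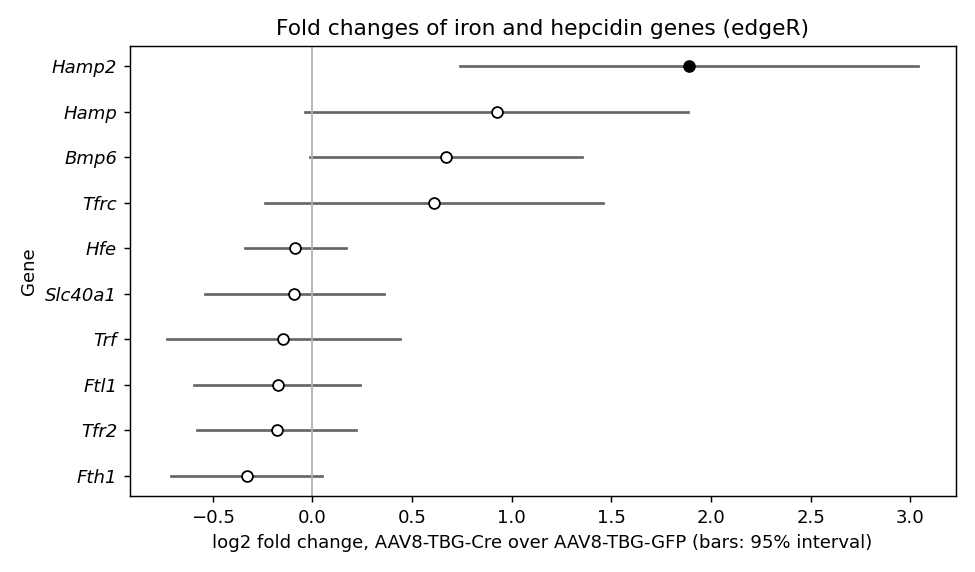
Log2 fold changes of the 10 genes (points) with 95% intervals (bars), filled where the unadjusted threshold was passed. Hamp2 at 1.89 is the only filled point, and the intervals of the other 9 genes include 0.

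The iron-sensing side of hepcidin control held 1 ligand and 2 hepatocyte receptors among the members. Bmp6 was low, with 4.12, 3.78 and 2.15 CPM in the controls and 5.54, 6.41 and 4.04 in the AAV8-TBG-Cre livers (41 to 156 counts per library). Its lowest AAV8-TBG-Cre liver lay just under the highest control. The 1.59-fold difference (log2 0.67 ± 0.29 SE, 95% interval -0.01 to 1.35) missed the threshold (unadjusted p = 0.053, edgeR adjusted p = 0.245), and the exact permutation p was 0.2. Bmp6 passed an unadjusted p under 0.05 in 7 of 10 other settings with all mice and in 2 of 6 fits that left out a mouse. Tfr2, which senses diferric transferrin, had 431.4, 454.9 and 557.0 CPM in the controls, compared with 477.3, 353.1 and 444.9 in the AAV8-TBG-Cre livers. These overlapped broadly (log2 fold change -0.18, 95% interval -0.58 to 0.22). Hfe, the MHC class I-like partner in the same sensor, lay between 32.60 and 37.05 CPM in the controls and between 30.11 and 36.29 in the other group (log2 fold change -0.08, interval -0.34 to 0.17). The intervals for Tfr2 and Hfe leave room for a change of up to 0.58 and 0.34 on the log2 scale.

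The wider hepcidin control list had 28 genes, 26 of them tested, of which 5 passed the unadjusted threshold higher (Id1, Atoh8, Smad7, Spint2 and Socs3), none lower, and none at the adjusted threshold in edgeR (1 in DESeq2). That is 19.2% beside the 20.5% of all genes. The list median was 0.16 on the log2 scale and 17 of 26 tested genes had positive values. Id1, a transcription regulator and direct target of BMP signalling, had 6.56, 8.32 and 3.19 CPM in the controls and 12.07, 14.99 and 12.27 in the AAV8-TBG-Cre livers. All 3 AAV8-TBG-Cre livers were above all controls (log2 fold change 1.12 ± 0.31 SE, unadjusted p = 0.00734, adjusted p = 0.106). Its unadjusted p was under 0.05 in all 16 alternatives, with adjusted p between 0.019 and 0.28.

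Atoh8, a BMP-responsive transcription factor that acts on Hamp, had 19.41, 24.89 and 19.11 CPM in the controls and 21.00, 32.70 and 39.76 with AAV8-TBG-Cre, with overlap at replicate 1 (log2 fold change 0.56, adjusted p = 0.222). Smad7, the inhibitory SMAD that feeds back on the pathway, had 10.52, 11.48 and 8.38 against 10.78, 18.20 and 14.20 CPM (log2 fold change 0.51, adjusted p = 0.229). Spint2, which encodes a serine protease inhibitor that acts on matriptase-2, differed by 0.27 on the log2 scale without overlap (adjusted p = 0.188). Atoh8 and Smad7 kept an unadjusted p under 0.05 in 10 and 9 of 16 alternatives. Atoh8 was at 0.34 without AAV8-TBG-Cre replicate 3 (unadjusted p = 0.163) and at 0.77 without AAV8-TBG-Cre replicate 1 (adjusted p = 0.0385, 0.0385 to 0.465 over the alternatives). Smad7 was at 0.30 without AAV8-TBG-Cre replicate 2 (unadjusted p = 0.178). The other inputs did not pass: log2 fold changes were 0.22 for Smad6, -0.10 for the co-receptor gene Hjv, -0.23 for Tmprss6 (matriptase-2, which cleaves hemojuvelin) and -0.21 for the endothelial ligand Bmp2. Erfe, the erythroid hormone that lowers hepcidin, had 1 to 4 counts per library, too few to compare.

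The inflammatory arm did not move one way. Il6 had 2 counts in all 6 libraries together. Socs3, induced by STAT3, had 10.37, 16.27 and 12.51 CPM in the controls and 18.04, 18.36 and 45.10 in the AAV8-TBG-Cre livers (log2 fold change 1.06, adjusted p = 0.171), and 0.48 without AAV8-TBG-Cre replicate 3. Among 16 acute-phase and STAT3 readouts, Socs3 passed the unadjusted threshold higher and the serum amyloid genes Saa1, Saa2 and Saa3 lower, with a list median of -0.40. That is 25% of the list, beside 20.5% of all genes (12.0% higher and 8.41% lower). Saa1 had 139.7, 193.0 and 1224 CPM in the controls and 169.6, 99.48 and 110.2 with AAV8-TBG-Cre (log2 fold change -2.04, adjusted p = 0.198). Without AAV8-TBG-GFP replicate 3 Saa1 was at -0.41, and Saa2 went from -2.41 to -0.40. Saa3, which did not overlap between the groups, went from -1.257 to -0.785 (edgeR unadjusted p = 0.0415). The liver with the highest Saa1 had the lowest Hamp, Hamp2, Bmp6 and Id1 of all 6.

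**Figure D3:**
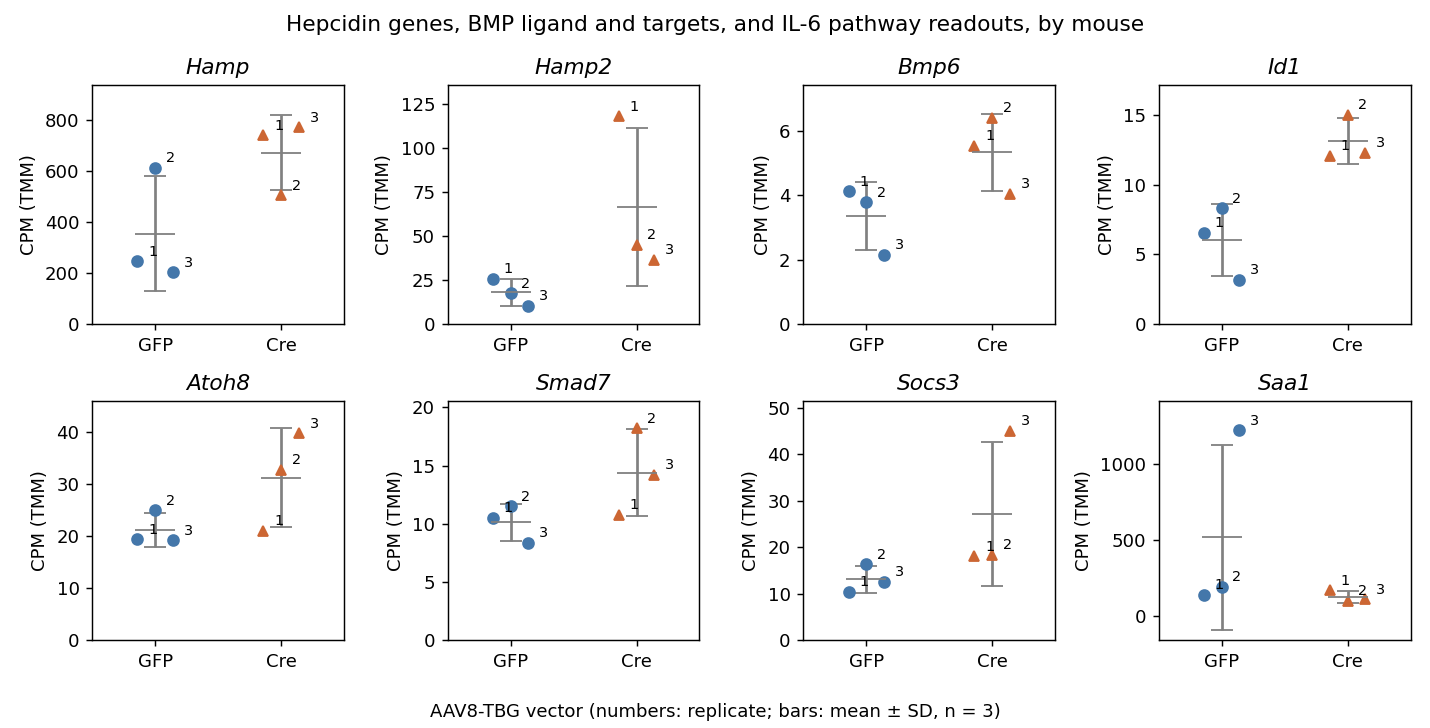
CPM of Hamp, Hamp2, Bmp6, its targets Id1, Atoh8 and Smad7, and the readouts Socs3 and Saa1 in each liver (points numbered by replicate), with mean ± SD (n = 3). Hamp2, Id1 and Socs3 do not overlap between groups, Hamp and Bmp6 do, and Saa1 is set by AAV8-TBG-GFP replicate 3 at 1224.

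The genes of transferrin uptake overlapped between the groups. Tfrc had 10.77, 6.58 and 21.04 CPM in the controls, compared with 17.75, 19.22 and 21.61 in the AAV8-TBG-Cre livers. The controls spread widely around means of 12.80 ± 7.44 against 19.53 ± 1.95 (SD, n = 3 each), and control replicate 3 lay among the AAV8-TBG-Cre livers. The log2 fold change was 0.61 ± 0.36 (SE; 95% interval -0.24 to 1.46, edgeR adjusted p = 0.388). Without AAV8-TBG-GFP replicate 3 it was 1.16, with an unadjusted p of 0.00145 and an adjusted p of 0.117 (0.117 to 0.657 over the fits that left out a mouse). Trf, the plasma iron carrier, had 14590, 12430 and 16970 CPM in the controls and 15820, 11490 and 12500 in the other group. The values were interleaved (log2 fold change -0.14, 95% interval -0.73 to 0.44), and on the FPKM scale the sign turned to 0.02.

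No member gene of iron storage or export passed the threshold in edgeR with all mice, while DESeq2 called Fth1 lower (log2 -0.34, unadjusted p = 0.0101). Fth1, the ferroxidase subunit of ferritin, had 1907, 1534 and 1796 CPM in the controls, compared with 1350, 1342 and 1476 in the AAV8-TBG-Cre livers. The groups did not overlap in CPM, yet they did in FPKM, where AAV8-TBG-Cre replicate 2 reached 1711.07 and control replicate 2 had 1577.98. The log2 fold change was -0.33 ± 0.16 (SE; 95% interval -0.71 to 0.05, edgeR adjusted p = 0.300). Ftl1, the light subunit, had 4207, 3846 and 4019 CPM against 3339, 3419 and 3938, with overlap at the third AAV8-TBG-Cre liver (log2 fold change -0.17, interval -0.59 to 0.24). No other gene named as ferritin or hepcidin had counts. Slc40a1, the ferroportin gene, had 104.2, 117.1 and 127.4 CPM in the controls and 114.6, 133.6 and 79.56 in the AAV8-TBG-Cre livers. The last group held both the highest and the lowest value (log2 fold change -0.09, interval -0.54 to 0.36), and the sign turned to 0.09 without AAV8-TBG-Cre replicate 3 and to 0.05 on the FPKM scale.

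The direction of Hamp2, Hamp, Bmp6, Tfrc and Fth1 was kept when any mouse was left out. This did not set them apart, since Tfr2, Trf, Ftl1 and Hfe kept theirs too, and only Slc40a1 did not. Hamp2 lay between 1.18 and 2.23 and Hamp between 0.63 and 1.58. Bmp6 lay between 0.42 and 0.84, Tfrc between 0.30 and 1.16 and Fth1 between -0.42 and -0.27.

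**Figure D4:**
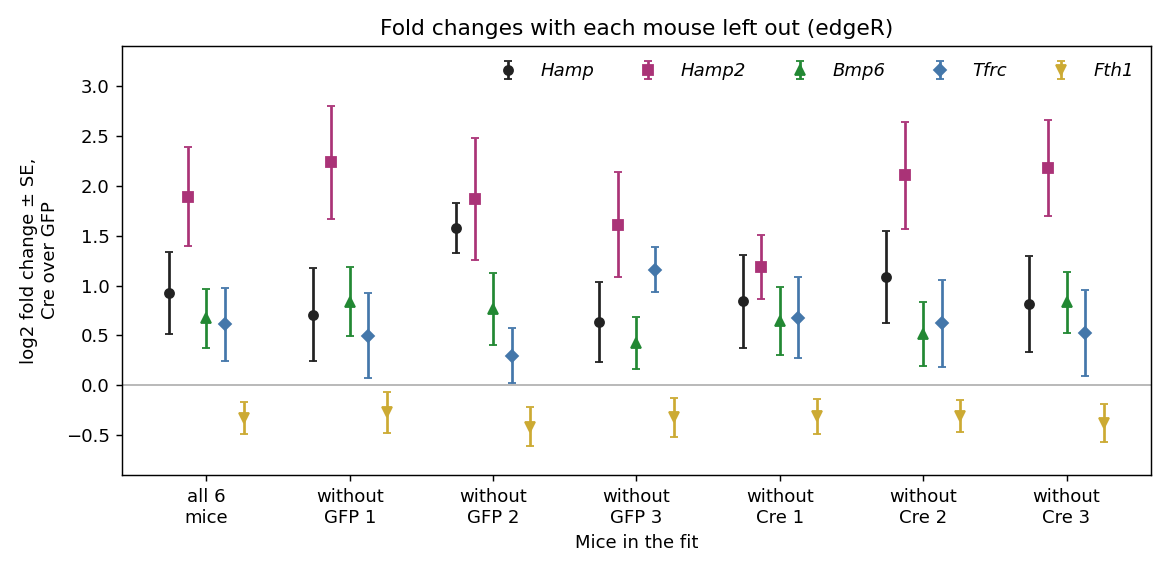
Log2 fold changes ± SE of Hamp, Hamp2, Bmp6, Tfrc and Fth1 with all 6 mice and with each mouse left out. Hamp2 is the highest in every fit, Hamp is at 1.58 without AAV8-TBG-GFP replicate 2, and Tfrc is at 1.16 without AAV8-TBG-GFP replicate 3.

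The library names were short for control replicates 1 and 2 and the first AAV8-TBG-Cre liver, and long for the other 3. Within the short form the log2 ratio of AAV8-TBG-Cre to AAV8-TBG-GFP was 0.78 for Hamp, 2.45 for Hamp2 and 0.49 for Bmp6. Within the long form it was 1.65, 1.95 and 1.28. Fth1 was -0.35 in both. Tfrc was 1.03 in the short form and -0.04 in the long form. These ratios rest on 1 liver on one side and have no test.

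Across the iron and heme lists without the members, 86 genes in all and 80 tested, 8 passed the unadjusted threshold higher and 9 lower (21.2%, beside 20.5% of all genes). Of all genes, 12.0% passed higher and 8.41% lower. On the FPKM scale, limma on log2(FPKM + 1) gave 9 higher and 1 lower, where 15.7% of all genes passed higher and 2.98% lower. Most of the lower calls were thus absent from that limma fit, where the median of all genes was 0.112. It differs from the edgeR fit in test and filter as well as in scale. With only the scaling factors changed in edgeR, RLE factors shared 17 calls of either direction with the main 17, and upper quartile factors 14. The cause was not tested. Of 20 heme genes, 5 were lower (Cd163, Abcb6, Blvrb, Urod and Cpox) and 1 higher (Hmox1), 30% in all in edgeR. limma on log2(FPKM + 1) gave 1 lower (Cd163) and 1 higher, with unadjusted p of 0.0994 for Abcb6, 0.15 for Blvrb, 0.242 for Urod and 0.156 for Cpox. The heme list median went from -0.19 to -0.02, below the median of all genes in both fits. Cd163, the macrophage receptor for haptoglobin-bound haemoglobin, had 7.57, 5.36 and 4.82 CPM in the controls and 1.62, 1.07 and 1.16 in the AAV8-TBG-Cre livers. The groups were far apart, 4.61-fold lower with AAV8-TBG-Cre in edgeR (log2 -2.21 ± 0.28 SE), at 24 to 149 counts per library. Cd163 was the one gene of these lists past the adjusted threshold in edgeR with all mice (edgeR adjusted p = 0.033, 6.93e-09 to 0.138 over the alternatives). Hmox1, the inducible heme oxygenase that frees iron from heme, had 25.11, 26.37 and 30 CPM against 25.48, 96.48 and 68.06. AAV8-TBG-Cre replicate 1 lay within the controls (log2 fold change 1.22, adjusted p = 0.156). Without that liver the log2 fold change was 1.60 (adjusted p = 0.0173), in a fit where 928 genes passed the adjusted threshold against 125 with all mice. Hmox1 had an unadjusted p under 0.05 in 11 of 16 alternatives, and its adjusted p ranged from 0.0173 to 0.414 over them. Among the fits that lost the call were those without AAV8-TBG-Cre replicate 2 (0.78, unadjusted p = 0.0765) and with the name form as a covariate (0.73, unadjusted p = 0.0623).

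The heme synthesis enzymes Urod and Cpox had log2 fold changes of -0.28 and -0.48, Blvrb (biliverdin reductase B) of -0.40 and the porphyrin transporter Abcb6 of -0.38, with adjusted p from 0.125 to 0.198. Of 16 mitochondrial iron and iron-sulfur genes, 3 were lower at the unadjusted threshold in edgeR and none higher. That is 18.8%, beside 20.5% of all genes past it in either direction and 8.41% lower. The 3 lower genes were Iscu, the scaffold of cluster assembly (-0.33), Slc25a37, the mitochondrial iron importer mitoferrin 1 (-0.32), and Glrx5, which passes clusters on (-0.42). Their adjusted p lay between 0.15 and 0.180. limma on log2(FPKM + 1) called none of the 16, with unadjusted p of 0.125, 0.272 and 0.107 for these genes. The list median was -0.11 in edgeR, beside -0.006 for all genes. It was 0.05 in limma on log2(FPKM + 1), where the median of all genes was 0.112. Its sign thus differed between these fits. It lay below the median of all genes in both, a difference that was not tested.

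Among 12 genes of uptake and reduction, 10 of them tested, Steap2 passed higher and Slc39a8 lower. That is 20% of those tested, beside 20.5% of all genes. Steap2, a metalloreductase, had 7.12, 5.56 and 6.75 CPM in the controls and 29.30, 11.75 and 15.59 with AAV8-TBG-Cre, without overlap (log2 fold change 1.54, adjusted p = 0.0677, 0.000434 to 0.216 over the alternatives). Slc39a8, a metal importer, differed by -0.34 (adjusted p = 0.187). In the storage and export list, with 8 of 10 genes tested, only the ferroxidase gene Heph passed, 12.5% beside 20.5% of all genes. Heph was higher at low counts, from 0.51 to 1.27 CPM in the controls and 1.72 to 2.38 with AAV8-TBG-Cre (log2 fold change 1.07, edgeR adjusted p = 0.164). Aco1, which encodes iron regulatory protein 1, did not pass (log2 fold change -0.40, unadjusted p = 0.0525).

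**Figure D5:**
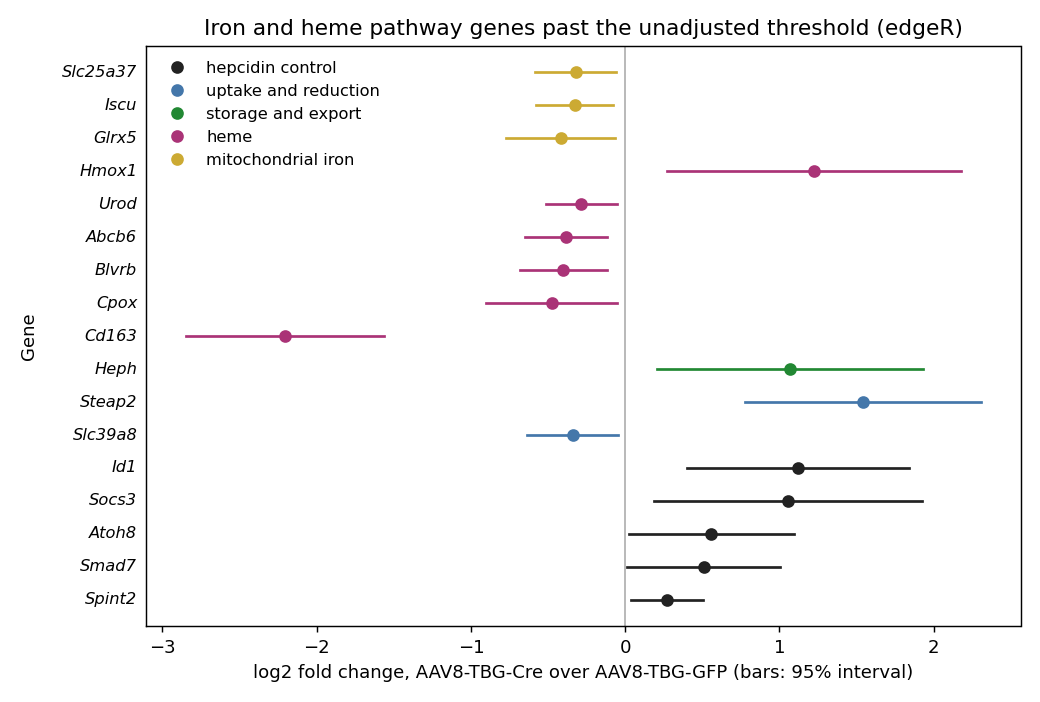
Log2 fold changes with 95% intervals of the 17 iron and heme pathway genes past the unadjusted threshold, coloured by list. Cd163 lies lowest at -2.21 and Steap2 highest at 1.54, and the called heme and mitochondrial genes other than Hmox1 lie below 0.

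Summed markers of cholangiocytes, macrophages, and stellate cells and fibroblasts did not overlap between the groups, while those of endothelial cells and neutrophils did. The calls below stand beside 20.5% of all genes past the unadjusted threshold, 12.0% higher and 8.41% lower. All 8 cholangiocyte markers passed the unadjusted threshold higher (summed 72.23 to 128.2 CPM with AAV8-TBG-GFP, 305.9 to 574.1 with AAV8-TBG-Cre). Macrophage and Kupffer cell markers were higher for 8 of 11 genes (287.6 to 330.4 and 437.8 to 618.9), while Cd163 was lower. Stellate cell and fibroblast markers were higher for 3 of 8 (219.4 to 329.6 and 405.3 to 840.3). Of 9 markers of endothelial cells, the main source of Bmp6, none passed higher and 1, Stab2, lower (186.3 to 302.6 and 195.4 to 232.4). Among 8 hepatocyte markers, Cps1 was higher and Ttr lower. Of 6 neutrophil markers, 3 were tested (2 higher, 1 lower), with sums of 6.76 to 7.19 and 6.86 to 11.21. No marker was at 0 in every library. Their part in the values of Hamp2, Id1, Steap2, Hmox1 and Cd163 was not tested.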

How the data were processed

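RNA-seq libraries of 6 whole livers (1 per mouse) were made from total RNA and sequenced on a DNBseq platform. The labels name oligo-dT selection or rRNA depletion without saying which was used. The authors deposited expected counts per transcript, as RSEM writes them, and a table of FPKM per gene. The submitters' processing notes name HISAT2, Bowtie2, RSEM and mm10, whereas the study's methods name STAR, HTSeq and DESeq2, so the order of steps is unsure.

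For each gene the expected counts of its transcripts were added and rounded, since such estimates need not be whole. Genes passing filterByExpr were fitted with edgeR 4.0.16 (quasi-likelihood test, TMM, vector as the only factor) in R 4.3.3, and p-values were adjusted by Benjamini-Hochberg over 13431 genes. SE came from the log2 fold change and its F value. CPM in exact permutation tests were TMM-scaled. Alternatives used DESeq2 1.42.0, RLE and upper quartile factors, other filters, a fold of 1.5, limma 3.58.1 on log2(FPKM + 1) or log2(FPKM + 0.1) with FPKM of at least 0.5 in 3 libraries or no filter, the name form, the replicate block and each mouse left out. The scripts were tested on simulated data. The p-values of the fits set the difference between groups against the variation between these mice, estimated with information shared across genes.

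The members and lists were chosen with earlier results of these data known. Named genes were all members, up to 6 genes per list and direction past unadjusted p under 0.05 and a fold of 1.2, fixed hepcidin regulators, and the 5 genes most like Hamp. Other genes named were chosen after their values were seen.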

Additional observations from a re-analysis of the deposited data

How the results depend on the processing

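Of 10 members, 1 passed the unadjusted threshold in edgeR with all mice. DESeq2 gave 4 (Bmp6, Fth1, Hamp2 and Hamp), upper quartile factors 2, no filter on low counts 3, and the name form as a covariate 3. limma gave 4 on log2(FPKM + 1), 3 on log2(FPKM + 0.1) and 2 without a filter, and fits that left out a mouse 1 to 2. The shares of all genes past that threshold were 16.2% in DESeq2, 19.8% with upper quartile factors, 17.6% without the filter, 19.4% with the name form, 18.7, 19.3 and 12.6% in the limma fits, and 14.0 to 27.3% with a mouse left out. At the adjusted threshold the count was 0, with 1 (Hamp2) under DESeq2 and under the name form covariate and 0 without any mouse. Pathway genes past the unadjusted threshold numbered 17, but 10, 8 and 8 in the 3 limma fits, 6 at a fold of 1.5 and 8 to 22 with a mouse left out. Past the adjusted threshold there was 1 (Cd163), with 4 under DESeq2, 2 without a filter, 4 with the name form, 0 in the 3 limma fits and 0 to 4 with a mouse left out. The share of all genes past it moved too: 0.931% in edgeR, 6.28% in DESeq2, 2.02% without a filter and 1.59% with the name form. It was 0.198, 0.173 and 0.0488% in the limma fits and 0 to 6.78% with a mouse left out.

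Replicate numbers did not pair the mice: the correlations of their deviations were 0.009, -0.263 and 0.209. With the replicate block 3 members (Bmp6, Tfrc and Hamp2) passed the unadjusted threshold (19.3% of all genes). In that fit 0 pathway genes passed the adjusted one (0.0521% of all genes), and Hamp had a log2 fold change of 1.1.

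Trf turned to 0.023 in all 3 limma fits. Slc40a1 turned to 0.052, 0.051 and 0.052 there and to 0.092 without AAV8-TBG-Cre replicate 3, within a range of -0.263 to 0.092. Hfe turned to 0.079, 0.082 and 0.079. FPKM are not TMM-scaled, and the median of all genes in those fits lay at 0.112, 0.138 and 0.066, with 15.7, 16.4 and 10.7% of all genes called higher and 2.98, 2.91 and 1.92% lower. The cause of these changes of sign was not tested. The other 7 members kept their direction in every alternative run. With 3 mice per group no exact permutation p can go below 0.1, and Bmp6, Tfrc, Heph and Cd163 rest on few counts. Cd163 had 92 to 149 counts per AAV8-TBG-GFP library and 24 to 34 per AAV8-TBG-Cre library.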

Other observations

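The genes whose log2 CPM followed Hamp most closely over the 6 livers, among 11428 compared, were Zmym6 (Pearson r = 0.9938), Pdcd10 (0.9900), Fst (0.9835), Spice1 (0.9801) and Polr1a (0.9744). They were picked for this likeness, so r is a description, and the difference between groups enters it. Fst, which encodes the activin-binding protein follistatin, had 1.27, 2.50 and 1.26 CPM in the AAV8-TBG-GFP livers and 2.72, 2.10 and 2.46 in the AAV8-TBG-Cre livers, with control replicate 2 high as for Hamp. None of the 5 passed the threshold, and Fst had an edgeR adjusted p of 0.416.

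Erythroid genes, which blood left in the liver would carry, showed no call among the 6 of 10 that were tested, neither at an unadjusted p under 0.05 in edgeR nor in DESeq2. Their summed level was 479.7 to 847.6 CPM with AAV8-TBG-GFP and 437.7 to 944.5 with AAV8-TBG-Cre.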
